A study of Homo sapiens with 15 samples.

Results

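Poly(A) site choice was compared between 2 HEK293T libraries with a short hairpin RNA against PCBP2 (shPCBP2) and 3 with a control hairpin (shControl). HEK293T is a human embryonic kidney cell line. Of the 13056 genes in the deposited table, 12434 had values in both shPCBP2 libraries and in 2 or more shControl libraries, and all of these were tested. The other 622 genes were not tested. The series also holds 10 libraries of 5 other knockdowns in the same line, 2 each of shHDAC1, shPABPN1, shSF3B4, shU2AF2 and shZNF384.

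PCBP2, also called hnRNP E2, is a KH-domain protein that binds stretches of cytosine in single-stranded RNA. It is known for stabilising and silencing messenger RNAs, for helping picornavirus RNAs to be translated, for delivering iron to enzymes, and for the turnover of the antiviral adaptor MAVS. Binding of poly(C)-binding proteins near a poly(A) site is also known to affect how often that site is used. Most genes have more than one poly(A) site, and an mRNA cut at the proximal site carries a shorter 3′ UTR than one cut at the distal site.

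The measurement is PDUI, an estimate of how much of the mRNA from a gene is cut at the distal site, as a fraction from 0 to 1. A value of 1 means that distal ends were estimated for every transcript, and a higher PDUI means longer 3′ ends. Libraries were made from RNA captured with oligo(dT). PDUI holds no read counts, so the depth behind a value is unknown, and RNA amount is not part of it. The strength of the PCBP2 knockdown and the identity of the cells could therefore not be checked from it, and no source used here gives the sequence of the hairpin. The shControl library names carry the suffix "nuc", which the shPCBP2 names lack, and nuclear as well as total RNA is named in the labels. If the suffix marks a difference in the RNA used, it cannot be told apart from the hairpin. Nothing says that the libraries came from separate cultures, so p-values measure the spread between these libraries, which may be technical.

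Over the 11353 genes with a value in all 15 libraries, mean PDUI was 0.5661 and 0.5743 in the shPCBP2 libraries, against 0.5218, 0.5604 and 0.5608 in the shControl libraries. Both shPCBP2 libraries lay above the 3 shControl libraries, and shControl replicate 1 lay apart below the rest. The group means were 0.5702 ± 0.0058 in shPCBP2 (SD, n = 2) and 0.5477 ± 0.0224 in shControl (SD, n = 3). The difference of 0.0226 had a two-sided exact permutation p of 0.3, where 0.1 is the smallest p that 2 libraries against 3 allow. Without shControl replicate 1 it was 0.00962. Across the tested genes, 7637 had a higher mean PDUI in shPCBP2 than in shControl and 3916 a lower one, with a median difference of 0.015.

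In the fit of all 15 libraries, the genes called between PCBP2 knockdown and control libraries mostly had longer 3′ ends in the knockdown. They mostly used the proximal site in control cells. The split between rises and falls depended on the fit, as given below. limma, fitted over all 15 libraries with Benjamini-Hochberg adjustment, called 145 of the 12434 genes (1.17%) at an adjusted p below 0.05. Of these, 130 (1.05%) rose, which here means a shift to the distal site, and 15 (0.121%) fell. The median rise was 0.125 and the largest 0.38, while the median fall was -0.24 and the largest -0.515. Among the rises the median PDUI was 0.315 in shPCBP2 and 0.1983 in shControl, and among the falls 0.73 in shPCBP2 and 0.97 in shControl. Over all tested genes the shControl median was 0.57.

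**Figure D1:**
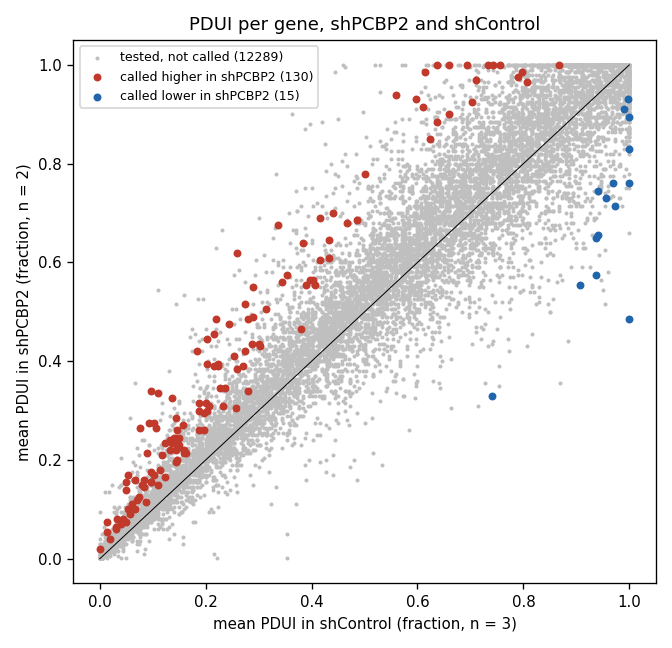
Mean PDUI in shPCBP2 (y axis, fraction, n = 2) against mean PDUI in shControl (x axis, fraction, n = 3), with 1 point per tested gene and the line of equality. The 130 genes called higher in shPCBP2 lie mostly at low shControl PDUI, and the 15 called lower lie at the right-hand edge with 1 exception.

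The libraries of the 2 groups did not overlap in 2691 genes (21.6%), with shPCBP2 higher in 2036 (16.4%) and lower in 655 (5.27%). All 145 called genes were among them. At an unadjusted p below 0.05 there were 1512 genes, 1222 higher and 290 lower in shPCBP2. The size of the call set depended on which libraries entered the fit: 46 genes were called without shPCBP2 replicate 1, 46 without shPCBP2 replicate 2, 58 without shControl replicate 1, 55 without shControl replicate 3, and 2, neither of them among the 145, when the fit held the 5 libraries alone. Those 2 genes were both lower in shPCBP2. The calls were 52 higher and 6 lower without shControl replicate 1, and 53 and 2 without shControl replicate 3. Falls made up more of the calls when 1 shPCBP2 library was left out. shControl replicate 1 was the lowest or tied lowest control in 87 of the 130 rises and in 8 of the 15 falls. It also had the lowest mean PDUI of the controls, and the share over all tested genes was not counted. When each library was centred on its median PDUI, 9 genes were called, 8 higher and 1 lower in shPCBP2, and the median difference over all genes became -0.0117 against 0.015. The direction of single genes below is therefore that of the uncentred values, and 3 of the 145 turned round when centred. Of the 38 called genes picked out by the naming rule, 5 were called in every fit that left out 1 library and 7 in none. Of these 38, 3 were called with centred libraries and none in the fit of the 5 libraries alone.

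Calls followed the level of PDUI in control cells. Rises made up 2.83% of the 1096 genes with a shControl mean under 0.1 and 3.25% of the 1479 genes from 0.1 to 0.25. They made up 1.15% of genes from 0.25 to 0.5, 0.461% from 0.5 to 0.75 and 0.263% from 0.75 to 0.9. Of the 15 falls, 14 had a shControl mean of 0.9 or more. The median standard error of a difference was 0.00879 in the lowest of these bands and 0.0768 from 0.75 to 0.9, so a small difference could be called in the lowest band that could not be called higher up. The median difference over all genes did not follow the calls. It grew from 0.00667 under 0.1 to 0.0167 from 0.1 to 0.25, 0.0267 from 0.25 to 0.5 and 0.035 from 0.5 to 0.75. Above that it was 0.0283 from 0.75 to 0.9 and 0.0 from 0.9 to 1. Of the 145 calls, 94 had a difference of 0.1 or more in size, 13 of 0.3 or more, and 16, all of them rises, of less than 0.05.

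Long last exons were frequent among the genes that rose. In GENCODE 29, 125 of the 130 rises were annotated, and 65 of those 125 (52.0%) had a last exon of 4000 bases or more, against 1547 of the 12106 annotated genes tested (12.8%). The median last exon was 4297 bases for the rises, 1884 for the 15 falls and 1372 for all tested. Put as a share of each length band, rises made up 0.556% of genes with a last exon under 500 bases, 0.32% from 500 to 1000, 0.616% from 1000 to 2000, 0.75% from 2000 to 4000 and 4.2% at 4000 or more. No steady climb with length was seen below 4000 bases.

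Rises took a larger share of the genes with long last exons in the ranges of control PDUI below 0.75. At shControl means under 0.25, rises were 6.98% of genes with a last exon of 4000 bases or more and 2.05% of those with a shorter one. From 0.25 to 0.5 they were 7.28% of the long and 0.464% of the shorter, and from 0.5 to 0.75 they were 4.33% of the long and 0.171% of the shorter. At 0.75 and above they were 2 of the 568 long (0.352%) and 3 of the 3268 shorter (0.0918%), too few to compare. Falls were also 2 of the 568 long there. Long last exons also had smaller standard errors, with a median of 0.0337 at 4000 bases or more and between 0.0446 and 0.0558 in the shorter bands. The part of this precision in the counts was not tested. Without shControl replicate 1, rises were 1.82% at 4000 bases or more and at most 0.36% in each shorter band. Set against the mean of the other 5 knockdowns, both directions were called more often in this band, at 2.75% higher and 1.9% lower in shPCBP2.

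**Figure D2:**
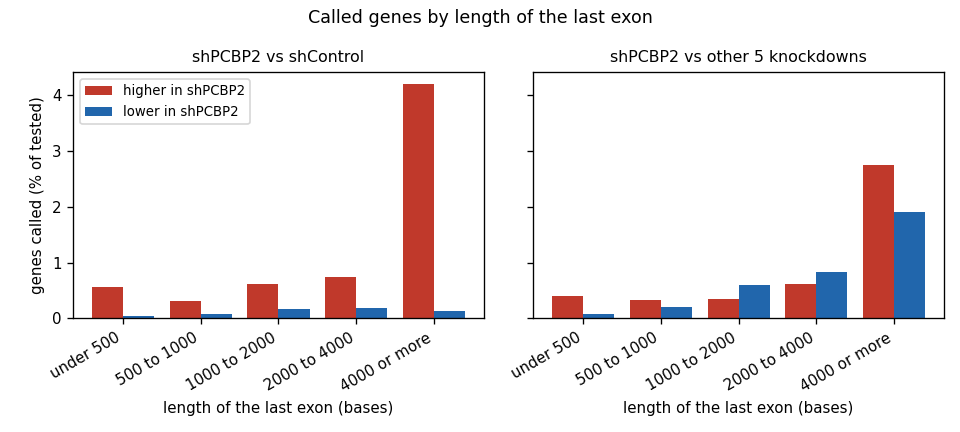
Share of tested genes called (y axis, percent) by length of the annotated last exon (x axis, bases), for shPCBP2 against shControl on the left and against the mean of the other 5 knockdowns on the right. Red bars are genes higher and blue bars genes lower in shPCBP2; on the left, rises reach 4.2% in genes with a last exon of 4000 bases or more and stay at or below 0.75% elsewhere.

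Cytosine content, the feature that PCBP2 reads, had lower medians in the called genes than over all genes, and no test of this was made. It was counted on the RNA strand of the 6791 tested genes whose transcript version matched GENCODE 29, among them 59 rises and 10 falls. The median last exon was 2120 bases in these 59 rises, against 4297 in all annotated rises, and 1110 over the 6791 genes. Genes of like last exon length were not compared. The last exon was 20.1% cytosine in the median rise, 20.3% in the median fall and 23.6% over all. The triplet CCC, overlapping matches included, occurred 11.1 times per kilobase in the median rise, 11.3 in the median fall and 18.1 over all. The 6-base motif CCCTCC was found in the last 200 bases of 11.9% of the rises, 2 of the 10 falls and 749 of all 6791 genes. The poly(A) signal AATAAA was found in the last 50 bases of 57.6% of the rises, 6 of the 10 falls and 58.8% of all. Its common variant ATTAAA was found there in 16.9% of the rises, none of the 10 falls and 15.8% of all. These are descriptions of annotated transcripts, not of sites shown to be bound or cut, and proximal sites are not given in the table.

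The sequence at the annotated distal end is shown for genes described below, because this is the end whose share PDUI measures. These are the last 30 bases of the transcript in genome build hg38 with GENCODE 29, on the RNA strand, and capitals mark AATAAA or ATTAAA.
FOXD2 (chr1:47440662-47440691, plus strand): tgtcgattgAATAAAtgtatgtgaacttca
RBM4B (chr11:66664998-66665027, minus strand): tttgacaAATAAAtgtttctaacacttaaa
HNRNPA3 (chr2:177223929-177223958, plus strand): cagtaagtAATAAAacaacaggaaacttgg
ZNF207 (chr17:32381857-32381886, plus strand): gatgAATAAAatctttcatttattatttat
PDK1 (chr2:172608640-172608669, plus strand): tttgATTAAAatcctgcatgttctcctgca
MAVS (chr20:3876094-3876123, plus strand): aaatctgctattattacttctagaactaca
The first 4 carry AATAAA and PDK1 carries ATTAAA, while the MAVS end holds neither in these 30 bases. Over the 6791 genes, 48.4% held AATAAA and 59.7% held either hexamer in the last 30 bases.

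The most cytosine-rich 30 bases of the last exon were also located, because runs of cytosine are the sequence PCBP2 is known to bind. Capitals mark runs of 3 or more cytosines, on the RNA strand and in the 3′ UTR of the annotated transcript.
SLITRK5 (chr13:87678641-87678670, plus strand): cctCCCCCtCCCCCgCCCCtgCCCCacctc
MAVS (chr20:3872893-3872922, plus strand): CCCCaCCCgatgagCCCCCtCCCaccaCCC
PDK1 (chr2:172605891-172605920, plus strand): ctaCCCCCacaactCCCCCtCCCCCaaacc
HNRNPA3 (chr2:177222744-177222773, plus strand): gCCCCactgtattccagcctgggtgaCCCC
The window of SLITRK5 held 23 cytosines, those of MAVS and PDK1 held 20 each, and that of HNRNPA3 held 13. The median over the 6791 genes was 16, and 17 among those with a last exon of 4000 bases or more. Windows located but not shown held 15 cytosines in ZNF207 and RBM4B, 19 in ATP6V0B and 21 in FOXD2, the last in its 5′ UTR. The windows of these genes thus lay both above and below the usual value.

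The largest rises were in NAAA and RGS17. NAAA, a lysosomal amidase that breaks down fatty acid ethanolamides, had PDUI values of 0.96 and 0.92 in shPCBP2, against 0.52, 0.48 and 0.68 in shControl. The difference was 0.38 ± 0.056 (SE, limma adjusted p = 0.0174). This SE rests on the spread within all hairpin groups, and the shControl libraries alone had an SD of 0.106 for NAAA. In the fit of the 5 libraries alone, the limma adjusted p of NAAA was 0.292. RGS17, which shortens G protein signals, had 0.97 and 1.0 in shPCBP2, against 0.62, 0.67 and 0.55 in shControl, a difference of 0.372 ± 0.055 (limma adjusted p = 0.018). TMEM65, a mitochondrial membrane protein, had 0.62 in both shPCBP2 libraries, against 0.24, 0.31 and 0.23 in shControl, a difference of 0.36 ± 0.046 (limma adjusted p = 0.0102). In all 3 genes the shPCBP2 libraries stood clear of every control by more than the controls differed among themselves. Other knockdowns were also high: NAAA averaged 0.93 in shHDAC1 and 0.965 in shSF3B4, RGS17 1.0 in shU2AF2, and TMEM65 0.68 in shPABPN1. Against the mean of the other 5 knockdowns TMEM65 was called (limma adjusted p = 0.0326). NAAA and RGS17 were not (limma adjusted p = 0.432 and 0.454). Of the 5 fits that each left out 1 library, NAAA was called in 2, RGS17 in 1 and TMEM65 in 3, and all 3 genes lost their call without either one of the shPCBP2 libraries (limma adjusted p of 0.0614 to 0.115).

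Several of the largest rises ended at, or close to, exclusive use of the distal site. ZNF704, a zinc finger protein, had 1.0 in both shPCBP2 libraries, against 0.62, 0.63 and 0.66 in shControl (limma adjusted p = 0.0155). PCGF5, a Polycomb group subunit, had 1.0 in both shPCBP2 libraries, against 0.73, 0.69 and 0.66 in shControl (limma adjusted p = 0.0266). DDHD1, a phospholipase, had 1.0 in both shPCBP2 libraries, against 0.62, 0.70 and 0.66 in shControl (limma adjusted p = 0.00622). In 7 of the 130 rises the shPCBP2 mean was at 1, the top of the scale. Over all genes with a value, 13.9% and 14.5% were at 1 in the shPCBP2 libraries, so values at 1 were not particular to the rises. Such values were shared with other knockdowns: PCGF5 averaged 1.0 in shPABPN1, shU2AF2 and shZNF384, ZNF704 1.0 in shU2AF2, and DDHD1 1.0 in shPABPN1. Against the mean of the other 5 knockdowns, ZNF704 and PCGF5 were not called (limma adjusted p = 0.363 and 0.719), while DDHD1 was. Of the 5 fits without 1 library, ZNF704 was called in 1, PCGF5 in none and DDHD1 in all. The DDHD1 last exon overlaps the antisense gene AL352979.2.

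CAMK4, ADARB1, SAR1B and CDADC1 also rose. CAMK4, a calcium and calmodulin dependent kinase, averaged 0.675 ± 0.007 in shPCBP2 and 0.337 ± 0.093 in shControl (SD, n = 2 and 3; limma adjusted p = 0.048). ADARB1, an RNA editing enzyme, averaged 0.78 ± 0.071 in shPCBP2 and 0.50 ± 0.062 in shControl (limma adjusted p = 0.0361). SAR1B, the GTPase that starts COPII vesicles, averaged 0.485 ± 0.035 in shPCBP2 and 0.22 ± 0.026 in shControl (limma adjusted p = 0.0143). CDADC1, of the cytidine deaminase family, averaged 1.0 ± 0.0 in shPCBP2 and 0.733 ± 0.093 in shControl (limma adjusted p = 0.0455). CAMK4 and CDADC1 had the widest control spread of these 4 genes. Against the mean of the other 5 knockdowns ADARB1 was called. CAMK4, SAR1B and CDADC1 were not (limma adjusted p = 0.122, 0.273 and 0.537 in that order). CDADC1 averaged 0.96 or more in every other knockdown but shHDAC1, which had 0.65. Of the 5 fits without 1 library, CAMK4 and ADARB1 were called in 1 each and SAR1B and CDADC1 in 2 each (highest limma adjusted p 0.218, 0.206, 0.0958 and 0.204 in that order).

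RBM4B, an RNA-binding protein with a short last exon of 581 bases, stood apart from the other knockdowns as well as the control. It had 0.97 and 0.86 in shPCBP2, against 0.57, 0.63 and 0.63 in shControl, a difference of 0.305 ± 0.047 (SE, limma adjusted p = 0.0214). The means of the other 5 knockdowns lay between 0.60 in shPABPN1 and 0.695 in shSF3B4 and shZNF384. Its difference from their mean was 0.248 ± 0.04 (limma adjusted p = 0.0237). It was called in 2 of the 5 fits without 1 library and reached its highest limma adjusted p, 0.133, without shPCBP2 replicate 1.

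Among the 15 falls, FOXD2 had the smallest limma adjusted p. FOXD2, a forkhead transcription factor encoded by a gene with 1 long exon, had 0.57 and 0.58 in shPCBP2, against 0.99, 0.92 and 0.90 in shControl. The difference was -0.362 ± 0.024 (SE, limma adjusted p = 0.000458), and it was called in all 5 fits that each left out 1 library. shPABPN1 lay lower still at 0.445 ± 0.007 (SD, n = 2), shZNF384 stood at 0.805 ± 0.021, and shHDAC1, shSF3B4 and shU2AF2 stood at 1.0. So shPCBP2, shPABPN1 and shZNF384 had means below the lowest control, and the other 3 knockdowns lay above every control. FOXD2 was called with centred libraries (limma adjusted p = 0.015). It was not called on the logit scale or in the fit of the 5 libraries alone (limma adjusted p = 0.0622 and 0.133).

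AXIN2, a brake on Wnt signalling that is itself a Wnt target gene, had 0.68 and 0.62 in shPCBP2, against 0.87, 0.99 and 0.95 in shControl. The difference was -0.287 ± 0.054 (SE, limma adjusted p = 0.0443), and the gene was called in none of the 5 fits that left out 1 library. MME, the peptidase neprilysin, had 0.36 and 0.30 in shPCBP2, against 0.62, 0.70 and 0.90 in shControl (limma adjusted p = 0.0419), and was called in 1 of those 5 fits. The other knockdowns averaged between 0.365 and 0.455 for MME, close to shPCBP2, and its last exon overlaps the antisense gene MME-AS1. Every shControl library lay above the means of all 6 knockdowns.

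The other falls began from almost complete distal use. Of the genes here, RWDD4 and MBTPS2 were also called against the mean of the other 5 knockdowns (limma adjusted p = 0.0438 and 0.0206). E2F7, RRN3 and LNX2 were not (limma adjusted p = 0.763, 0.12 and 0.151). RWDD4 had 0.74 and 0.78 in shPCBP2 and 1.0 in all 3 shControl libraries, and MBTPS2, the membrane protease that releases sterol regulatory factors, had 0.79 and 0.87 in shPCBP2 and 1.0 in all 3 shControl libraries. E2F7, a repressor of cell cycle genes, averaged 0.73 ± 0.014 in shPCBP2 and 0.957 ± 0.051 in shControl. Its mean was 0.82 or less in every other knockdown too. RRN3, the initiation factor of RNA polymerase I, averaged 0.76 ± 0.028 in shPCBP2 and 0.97 ± 0.052 in shControl. LNX2, a ubiquitin ligase, averaged 0.715 ± 0.007 in shPCBP2 and 0.973 ± 0.023 in shControl. In shU2AF2 the means were 0.625 for LNX2, 0.675 for E2F7, 0.77 for RWDD4, 0.86 for MBTPS2 and 0.89 for RRN3. Their limma adjusted p-values ran from 0.0174 for MBTPS2 to 0.0366 for E2F7, and of the 5 fits without 1 library MBTPS2 was called in 2, E2F7, RRN3 and LNX2 in 1 each and RWDD4 in none.

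Smaller or less known transcripts made up the rest of the falls named here. TP53INP1, a p53-induced autophagy protein, averaged 0.91 ± 0.014 in shPCBP2 and 0.99 ± 0.017 in shControl (limma adjusted p = 0.0348). FAM243A averaged 0.655 ± 0.035 in shPCBP2 and 0.94 ± 0.079 in shControl (limma adjusted p = 0.0443). Both shPCBP2 libraries lay under the lowest control in each, and the libraries of all 145 called genes were likewise apart. In shU2AF2 the means were 0.905 for TP53INP1 and 0.625 for FAM243A. Both genes were called against the mean of the other 5 knockdowns (limma adjusted p = 0.0262 and 0.0439). The antisense RNA TSPEAR-AS1 had 0.42 and 0.55 in shPCBP2, against 1.0 in the 2 shControl libraries with a value (limma adjusted p = 0.033), and the antisense RNA AL162171.1 had 0.62 and 0.49 in shPCBP2, against 0.84, 0.90 and 0.98 in shControl (limma adjusted p = 0.0453). TP53INP1 and FAM243A were each called in 1 of the 5 fits without 1 library. AL162171.1 was called in none of the 5, and TSPEAR-AS1 in none of the 3 in which it could be tested.

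**Figure D3:**
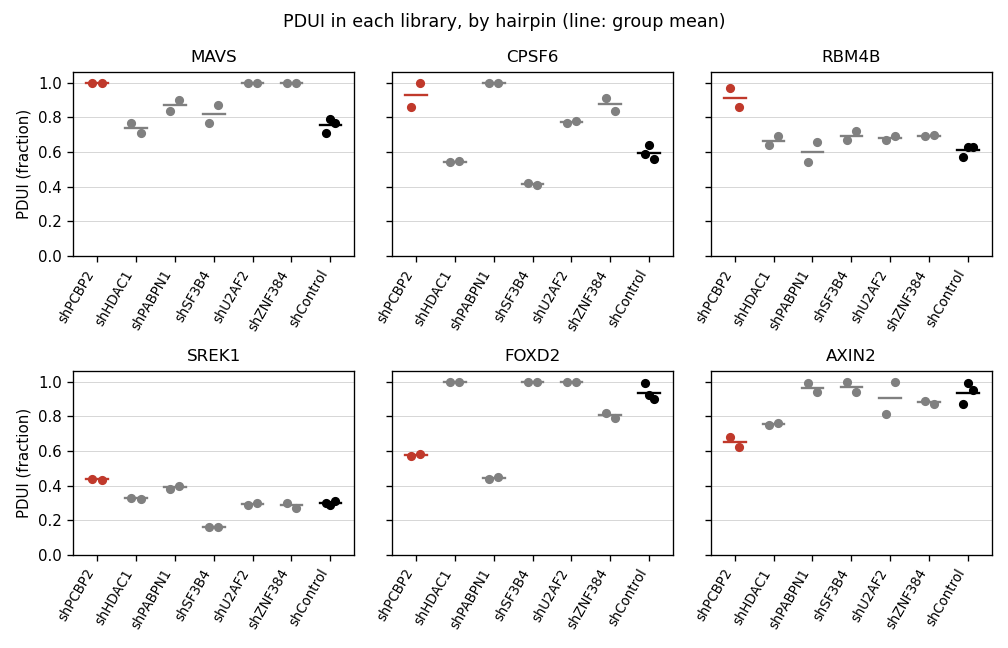
PDUI (y axis, fraction) of 6 genes in each of the 15 libraries, by hairpin (x axis), with 1 point per library and a line at each group mean. RBM4B and SREK1 have their highest mean in shPCBP2, MAVS reaches 1 in shPCBP2, shU2AF2 and shZNF384, and AXIN2 has its lowest mean in shPCBP2.

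Because single libraries decided many calls, the genes that were called in all 5 fits that each left out 1 library were gathered. This choice was made after their values were seen, so the 18 genes get no test as a set. There were 16 rises and 2 falls, 15 of the 18 were protein coding, and 5 had a last exon that overlaps another gene. With centred libraries 6 of the 18 were called, and in the fit of the 5 libraries alone none was (smallest limma adjusted p 0.0621). Of the rest of the 145, 9 were called in 4 of these fits and 39 in none.

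PPP2R2D, a regulatory subunit of the phosphatase PP2A, had the smallest p-value among these 18. It had 0.27 and 0.26 in shPCBP2, against 0.06, 0.09 and 0.08 in shControl, a difference of 0.188 ± 0.008 (SE, limma adjusted p = 3.73e-05). Every other knockdown averaged 0.195 or less. SLITRK5, a neuronal membrane protein with a last exon of 20892 bases, had 0.43 and 0.46 in shPCBP2, against 0.18, 0.24 and 0.19 in shControl (limma adjusted p = 0.00148). Its other knockdown means lay between 0.09 in shSF3B4 and 0.35 in shPABPN1, all below shPCBP2. For both genes shPCBP2 held the highest mean of the 7 groups.

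AC023509.1, a processed transcript, lies on the PCBP2 locus itself. It had 0.35 and 0.33 in shPCBP2, against 0.07, 0.12 and 0.10 in shControl, a difference of 0.243 ± 0.014 (SE, limma adjusted p = 0.000175). The other knockdowns averaged between 0.03 in shSF3B4 and 0.20 in shZNF384, so shPCBP2 was the highest of the 7 groups. In GENCODE 29 (hg38) this gene spans chr12:53441741-53467528 on the plus strand and PCBP2 spans chr12:53452102-53481162 on the same strand. Of its 13 exons, 10 overlap a PCBP2 exon and 9 share both ends with one, and it stops 12298 bases before the distal end of the PCBP2 transcript in the table. Reads of the targeted gene and of AC023509.1 cannot be told apart over those exons. Whether the hairpin's action on PCBP2 RNA enters this PDUI was not tested.

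PCBP2 itself showed no such difference at its own distal end. Its table transcript, whose last exon is chr12:53479406-53479826, had PDUI values of 0.60 and 0.58 in shPCBP2, against 0.56, 0.57 and 0.58 in shControl, a difference of 0.02 ± 0.025 (SE, limma adjusted p = 0.837). The groups shared the value 0.58, and the sign turned when libraries were centred (-0.00667). This last exon overlaps MAP3K12 on the other strand.

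Low levels with tight replicates were frequent among the 18, and choosing genes by stable calls favours them. The median standard error was 0.00879 at shControl means under 0.1 and 0.0768 from 0.75 to 0.9. PDK1, a kinase that restrains pyruvate dehydrogenase, had 0.08 in both shPCBP2 libraries, against 0.04, 0.05 and 0.04 in shControl (limma adjusted p = 0.00608). ZNF207, a kinetochore and spindle protein, had 0.16 in both shPCBP2 libraries, against 0.08, 0.09 and 0.08 in shControl (limma adjusted p = 0.00457). These differences were 0.037 and 0.077, small on the scale of PDUI, beside a control SD of 0.006 for each gene. With centred libraries they shrank to 0.01 for PDK1 (limma adjusted p = 0.872) and 0.05 for ZNF207 (limma adjusted p = 0.503). DR1, a repressor of transcription initiation, averaged 0.21 ± 0.0 in shPCBP2 and 0.117 ± 0.012 in shControl (limma adjusted p = 0.005). ATP6V0B, a subunit of the vacuolar proton pump, averaged 0.235 ± 0.007 in shPCBP2 and 0.123 ± 0.015 in shControl (limma adjusted p = 0.0021). CRIPT, a partner of the postsynaptic protein PSD-95, averaged 0.325 ± 0.021 in shPCBP2 and 0.137 ± 0.012 in shControl (limma adjusted p = 0.00448). In each of these 3 genes the lowest shPCBP2 library was above the highest control, and no called gene had overlapping libraries.

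SC5D, HSPA4L and AGK rose by less than 0.1. SC5D, an enzyme of cholesterol synthesis, averaged 0.295 ± 0.007 in shPCBP2 and 0.197 ± 0.006 in shControl (limma adjusted p = 0.000707). HSPA4L, a relative of the HSP70 chaperones, averaged 0.22 ± 0.0 in shPCBP2 and 0.133 ± 0.006 in shControl (limma adjusted p = 0.000707). AGK, a mitochondrial lipid kinase, averaged 0.225 ± 0.021 in shPCBP2 and 0.147 ± 0.012 in shControl (limma adjusted p = 0.00964), and its difference of 0.078 became 0.0517 with centred libraries (limma adjusted p = 0.495). The last exon of HSPA4L overlaps AC093591.2 and that of AGK overlaps AC004918.1, each on the other strand. The set also held transcripts with no known role: IDI2-AS1 had 0.55 in both shPCBP2 libraries, against 0.28, 0.30 and 0.29 in shControl (limma adjusted p = 0.00448), and AC093909.6 fell, with 0.90 and 0.89 in shPCBP2 and 1.0 in all 3 shControl libraries (limma adjusted p = 0.00154).

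**Figure D4:**
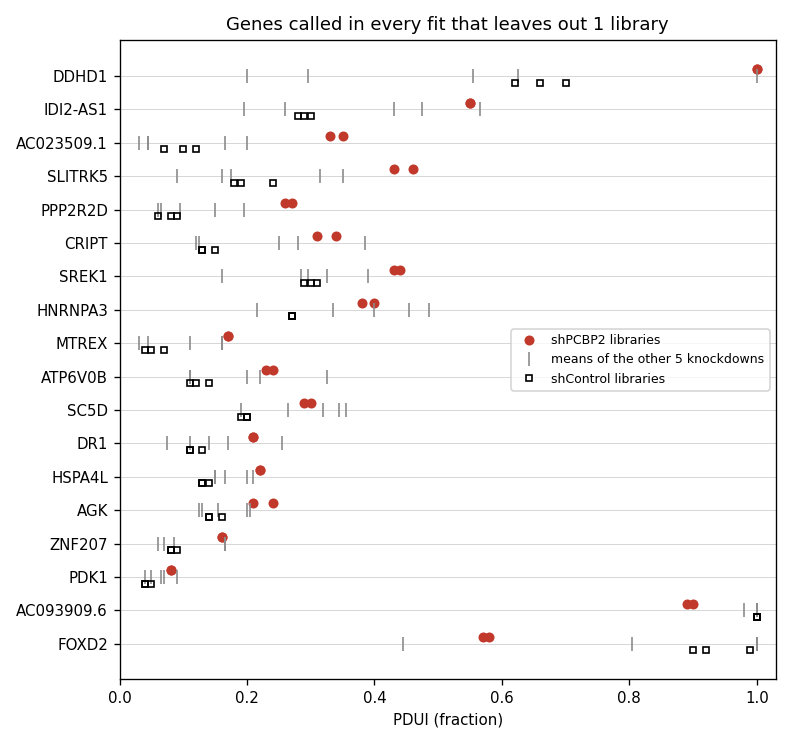
PDUI (x axis, fraction) of the 18 genes called in every fit that left out 1 library, with shPCBP2 libraries as red circles, means of the other 5 knockdowns as grey ticks and shControl libraries as open squares. The red circles stand clear of the squares in all 18, as they would in all 145 called genes. They lie to the right in 16 and to the left in AC093909.6 and FOXD2.

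The other results are given by 17 gene lists, beginning with the proteins that make and read 3′ ends, and no list was tested as a whole. Of 30 tested cleavage and polyadenylation factors, 1 rose and none fell (3.33% called, beside 1.17% over all tested genes; median difference 0.0158). It was CPSF6, the large subunit of cleavage factor Im, a complex known to favour distal sites. CPSF6 had 0.86 and 1.0 in shPCBP2, against 0.59, 0.64 and 0.56 in shControl, a difference of 0.333 ± 0.044 (SE, limma adjusted p = 0.011). Values in shPABPN1 averaged 1.0 and in shSF3B4 0.415, and shPCBP2 stood second among the 7 groups. Its last exon overlaps the microRNA gene MIR1279 on the other strand, and it lost its call without shPCBP2 replicate 2 (limma adjusted p = 0.0611).

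Among 33 tested KH-domain genes, the class PCBP2 belongs to, none passed the test in either direction (median difference 0.02). Over all tested genes 1.17% were called, so an empty list of this size does not set the class apart. PCBP1, the closest relative of PCBP2, averaged 0.815 ± 0.021 in shPCBP2 and 0.77 ± 0.069 in shControl (limma adjusted p = 0.688). PCBP3 averaged 0.995 ± 0.007 in shPCBP2 and 0.787 ± 0.227 in shControl (limma adjusted p = 0.73), and PCBP4 averaged 0.805 ± 0.064 in shPCBP2 and 0.713 ± 0.074 in shControl (limma adjusted p = 0.574). HNRNPK, another poly(C) reader, averaged 0.505 ± 0.007 in shPCBP2 and 0.51 ± 0.04 in shControl (limma adjusted p = 1.0). PCBP3 was apart in its libraries because both shPCBP2 values exceeded controls that spread from 0.53 to 0.96, and the other 3 overlapped. The last exons of PCBP1 and PCBP4 overlap PCBP1-AS1 and GPR62 on the other strand.

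Of 29 tested hnRNP genes 2 rose, and of 26 SR protein genes 2 rose, with none falling in either list. The called shares were 6.9% and 7.69%, beside 1.17% over all tested genes, and the median differences were -0.00167 and 0.00667. HNRNPA3 had 0.38 and 0.40 in shPCBP2, against 0.27 in all 3 shControl libraries (limma adjusted p = 0.00448). Its mean of 0.39 lay within the range of the other knockdowns, 0.215 to 0.485, and its difference from their mean was 0.012 ± 0.010 (limma adjusted p = 0.767). TARDBP, which encodes TDP-43, had 0.43 in both shPCBP2 libraries, against 0.27, 0.32 and 0.32 in shControl (limma adjusted p = 0.0193). Unlike HNRNPA3, TARDBP was also called against the other knockdowns (difference 0.108 ± 0.016, limma adjusted p = 0.0184), and its last exon overlaps AL109811.4 on the same strand. It lost its call against shControl without either one of the shPCBP2 libraries (limma adjusted p = 0.101 and 0.105).

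SREK1, a splicing regulator of the SR family, had 0.44 and 0.43 in shPCBP2, against 0.30, 0.29 and 0.31 in shControl, a difference of 0.135 ± 0.011 (SE, limma adjusted p = 0.00148). The other knockdowns averaged from 0.16 in shSF3B4 to 0.39 in shPABPN1, so shPCBP2 had the highest mean of all 7 groups. BCLAF1, an SR-related nuclear protein, had 0.30 and 0.32 in shPCBP2, against 0.22, 0.24 and 0.24 in shControl (limma adjusted p = 0.0155; called in 2 of the 5 fits without 1 library, and with centred libraries its difference was 0.05 instead of 0.077). Of 29 genes of the U2 snRNP and 3′ splice site none passed the test, beside 1.17% over all tested genes (median difference 0.02). Counts of 2 or fewer per list give these shares little precision.

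In the pathways that PCBP2 is known for, MAVS and EIF4EBP2 passed the test. MAVS, the mitochondrial adaptor of the RNA sensors whose turnover PCBP2 assists, had 1.0 in both shPCBP2 libraries, against 0.71, 0.79 and 0.77 in shControl, a difference of 0.243 ± 0.034 (SE, limma adjusted p = 0.0146). MAVS was at 1.0 in all libraries of shU2AF2 and shZNF384 too, and at 0.74 ± 0.042 in shHDAC1, so the value in shPCBP2 was shared with 2 other knockdowns. It lost its call without either one of the shPCBP2 libraries (limma adjusted p = 0.0895 and 0.0867). It was the 1 call among 30 antiviral sensing genes (median difference 0.0192) and also the 1 call among 29 genes listed as PCBP targets and partners (median difference 0.00833). Of 28 iron handling genes none passed the test, beside 1.17% over all tested genes (median difference 0.0325). Of 39 genes of translation initiation and internal ribosome entry 1 rose: EIF4EBP2, a repressor of cap-dependent initiation, with 0.55 and 0.56 in shPCBP2, against 0.35, 0.42 and 0.40 in shControl (limma adjusted p = 0.00966; called in 3 of the 5 fits without 1 library). EIF4EBP2 averaged 0.675 in shPABPN1 and 0.54 in shZNF384, beside 0.555 in shPCBP2. Against the mean of the other 5 knockdowns it was called (limma adjusted p = 0.0364). The called shares were 3.33% of the antiviral genes, 3.45% of the PCBP targets and 2.56% of the translation genes, beside 1.17% over all tested genes.

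The microRNA machinery and the RNA decay machinery gave 2 rises each. AGO2, the slicing Argonaute, had 1.0 in both shPCBP2 libraries, against 0.82, 0.77 and 0.64 in shControl (limma adjusted p = 0.0467), and AGO1 had 1.0 and 0.97 in shPCBP2, against 0.83, 0.83 and 0.73 in shControl (limma adjusted p = 0.048). These were the 2 calls among 31 tested genes of the microRNA pathway and CCR4-NOT, with 6.45% called beside 1.17% over all tested genes and a median difference of 0.0183. AGO2 was called in 1 of the 5 fits without 1 library and AGO1 in none. The AGO1 last exon overlaps AL139286.2 on the other strand. AGO2 averaged 0.97 or more in every other knockdown but shHDAC1, which had 0.645, and AGO1 averaged 1.0 in shPABPN1 and shU2AF2. Neither was called against the mean of the other 5 knockdowns. MTREX, the helicase that feeds the nuclear exosome, had 0.17 in both shPCBP2 libraries, against 0.04, 0.07 and 0.05 in shControl (limma adjusted p = 0.00452), over a last exon that overlaps PLPP1 on the other strand. EXOSC6, an exosome subunit, had 0.31 and 0.30 in shPCBP2, against 0.26, 0.26 and 0.25 in shControl (limma adjusted p = 0.0443), was called in none of the 5 fits without 1 library, and differed by 0.0217 instead of 0.048 with centred libraries. They were the 2 calls among 29 tested genes of nuclear RNA decay and export (6.9%, beside 1.17% over all; median difference 0.00833).

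Membrane traffic held 4 rises among 74 tested genes (5.41% called, beside 1.17% over all tested genes), with a median difference of 0.0217, and 2 of them were called without shControl replicate 1. Beside SAR1B, these were SEC22B, a SNARE between the endoplasmic reticulum and Golgi, at 0.42 in both shPCBP2 libraries and 0.273 ± 0.025 in shControl. VPS4A, the ATPase that takes ESCRT filaments apart, averaged 0.22 ± 0.0 in shPCBP2 and 0.16 ± 0.010 in shControl. STX7, an endosomal syntaxin, averaged 0.155 ± 0.007 in shPCBP2 and 0.097 ± 0.015 in shControl. The limma adjusted p-values were 0.0241 for SEC22B, 0.0125 for VPS4A and 0.0403 for STX7. The last exon of VPS4A overlaps COG8 on the other strand. All 4 genes had a higher mean in shPABPN1, at 0.48 for SEC22B, 0.28 for VPS4A, 0.16 for STX7 and 0.55 for SAR1B. None of the 4 was called against the mean of the other 5 knockdowns. Of the 5 fits without 1 library, SEC22B and STX7 were called in 1 each, SAR1B in 2 and VPS4A in 3, and with centred libraries the differences were 0.0333 instead of 0.06 for VPS4A and 0.0317 instead of 0.058 for STX7.

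The remaining lists held few calls or none, beside 1.17% called over all tested genes. At that share, empty lists of these sizes do not set their genes apart. In the cell cycle list 1 of 54 genes (1.85%) rose, the replication helicase subunit MCM2, with 0.08 in both shPCBP2 libraries, against 0.03, 0.03 and 0.04 in shControl (limma adjusted p = 0.00966), a difference of 0.047 that was 0.02 with centred libraries. In the list of genes with reported alternative polyadenylation, 40 tested, AGO2 rose and AXIN2 fell (5.0% called; median difference 0.0183). No gene passed the test among 62 ubiquitin ligases and E2 enzymes (median difference 0.01), 35 genes of oxidative phosphorylation (0.00333) or 54 chromatin regulators of neurodevelopmental disorders (0.0125). Of 20 markers of other cell types, 6 had the values needed and none was called (median difference -0.03). A p that misses the threshold does not show that these genes were alike in both groups.

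**Figure D5:**
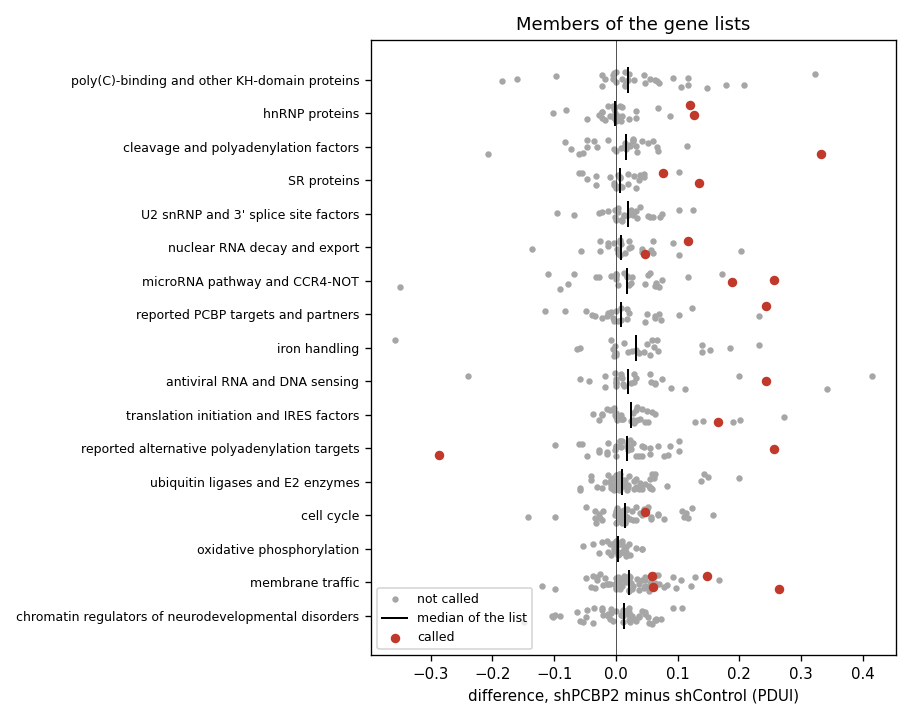
Difference in PDUI, shPCBP2 minus shControl (x axis, fraction), for every tested member of 17 gene lists (rows), with called genes in red, other genes in grey and a black line at each list's median. Medians lie between -0.00167 and 0.0325, and the called members lie to the right of 0 except for AXIN2.

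Measured against the mean of the other 5 knockdowns rather than the control, shPCBP2 differed in 165 of 12134 tested genes (1.36%), 88 higher (0.725%) and 77 lower (0.635%). The median difference was 0.005. Both comparisons use the same 2 shPCBP2 libraries, so they are not independent, and the rule for naming genes asked for those called in both: 48 of the 130 rises and 9 of the 15 falls were. DDHD1 differed by 0.34 ± 0.038 from shControl and by 0.465 ± 0.032 from the other knockdowns (SE; limma adjusted p = 0.00622 and 0.000298), whose means ran from 0.20 in shSF3B4 to 1.0 in shPABPN1. ADARB1 differed by 0.28 ± 0.049 from shControl and by 0.267 ± 0.042 from the other knockdowns (limma adjusted p = 0.0361 and 0.0205). SC5D, in contrast, differed by 0.098 ± 0.007 from shControl and by 0.0 ± 0.006 from the other knockdowns. The shPCBP2 mean was the highest of the 7 groups in 40 of the 130 rises and the lowest in 8 of the 15 falls. These genes were selected by their shPCBP2 values, which favours such ranks. The share over all tested genes was not counted, so no conclusion is drawn from these counts.

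Some genes had a value in 1 group alone. In 50 genes no PDUI was given in either shPCBP2 library while all 3 shControl libraries had one, and in 11 genes both shPCBP2 libraries had a value and no shControl library did. A missing value means that the authors' table gives no estimate, and these genes were not tested.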

How the data were processed

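Oligo(dT)-captured RNA of HEK293T cells was sequenced, and the authors deposited 1 table of PDUI, in the unit fraction, with 1 transcript per gene for 15 libraries on build hg38, per the submitters' processing notes. For the aligner, the PDUI program and its read filter, the name is not given in the sources used here. Genes whose exons overlap a named last exon are given beside the result, since their reads may enter PDUI.

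The comparison, the gene lists and the tests were chosen with earlier results of these data known. Differences were fitted with limma 3.58.1 in R 4.3.3, on untransformed fractions, with 1 mean per hairpin over all 15 libraries, a variance trend with mean PDUI and Benjamini-Hochberg adjustment over all tested genes (threshold 0.05). The fit had 8 residual degrees of freedom. The script was tested on simulated data, where the share of false calls was above the nominal level of the adjusted p, so adjusted p-values here may be somewhat too small. A gene counted as named if called, with both shPCBP2 libraries beyond the shControl range, and if it was among the 10 largest rises or falls, over all genes or over protein-coding genes whose last exon overlaps no other gene. The 5 largest in each direction also called against the other knockdowns, up to 4 called genes per list, and PCBP1 to PCBP4 and HNRNPK were added. The 18 genes called in all fits that left out 1 library, and the bands of last exon length, were chosen after values were seen. Transcripts were matched to GENCODE 29, which held 97.3% of them, 54.9% at the same version. Sequences were read from GENCODE 29 transcripts. Tables and figures used Python 3.11.15, pandas 2.3.3 and matplotlib 3.10.9. Alternatives were 2-group, centred, untrended, logit and complete-gene fits, a replicate block, and leaving out libraries or overlapping genes.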

Additional observations from a re-analysis of the deposited data

How the results depend on the processing

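Against shControl, 145 genes were called. Fits that each left out 1 library called 46 to 119. The fit of both groups alone called 2, centred libraries 9, and genes without an overlapping last exon 94. Fits without a variance trend (110), on the logit scale (156) and on complete genes (145) stayed within 1.5 times the count. Same-numbered shPCBP2 and shControl libraries deviated together with r of 0.03569 and 0.02832, which with 2 pairs does not show pairing. The replicate block, fitted without shSF3B4, called 7, with 4 higher and 3 lower in shPCBP2. The same fit with no block, added after seeing the data, called 95, with 85 higher and 10 lower. Against the other 5 knockdowns (165), the counts were 106 with the groups of that comparison alone, 17 with centred libraries, 13 with the replicate block, 26 without shSF3B4 and no block, and 31 to 44 without 1 shPCBP2 library. The difference in mean PDUI stayed above 0, from 0.00962 to 0.0291 without 1 library. PCBP2 turned to -0.00667 with centred libraries, and HNRNPK to 0.015 with the replicate block and its difference ran from -0.025 to 0.015 without 1 library. Of the 38 called genes that the rule named, 3 were called with centred libraries, none in the fit of both groups alone, 1 with the replicate block and 6 to 25 without 1 library (37 could be tested without shControl replicate 2 or 3). The cause of these changes was not tested. No depth is known, so none can be weighed.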
